A study of Mus musculus with 12 samples.

Results

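Interleukin (IL) 3, 4, 5, 13, 10, 24, 21 and 9, granulocyte-macrophage colony-stimulating factor (GM-CSF, gene Csf2) and the transcription factor GATA3 were followed in T cells of mouse spleen kept in culture with partner cells. The 10 genes, Il4, Il5, Il13, Gata3, Il3, Csf2, Il9, Il21, Il10 and Il24, were taken by symbol from a count table of 53762 symbols, and all 10 passed the filter on low counts that left 16945 genes for testing. The series, which concerns how cancer cells escape ferroptosis, asked which T cell genes differ with the partner. There were 4 groups of 3 libraries: T cells with Res_shFabp7 partner cells for 48 h, with Res_ctrl partner cells for 48 h, with Res_shFabp7 partner cells for 24 h and with Res_ctrl partner cells for 24 h. The partner cells carried either a short hairpin RNA named for Fabp7, a fatty acid binding protein gene, or a control construct, and all groups were kept in RPMI-1640 with serum and antibiotics.

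The labels give neither the strain, the age, the stimulus of the T cells, the number of animals, the identity of the Res cells nor how many shFabp7 lines were used. They also do not say whether the libraries of a group stem from different cultures or mice, and the p-values therefore refer only to the spread among these libraries, which may be technical. Bulk RNA was measured, so fewer cells of a type and less RNA per cell cannot be told apart. Library totals were 31.95 to 40.64 M counts. The targeted gene is not one that these libraries can check, because the hairpin acts in the partner cells: Fabp7 had 0 counts in the 3 libraries with shFabp7 partners at 48 h and in all 6 libraries at 24 h, against 3, 1 and 1 counts with control partners at 48 h. The label T cell was borne out by its markers. None of 16 T cell marker genes was at 0 in any group, and their summed level, in CPM (counts scaled to the size of the library), averaged 4225 CPM with shFabp7 partners at 48 h, 4154 CPM with control partners at 48 h, 5618 CPM with shFabp7 partners at 24 h and 5567 CPM with control partners at 24 h.

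Helper T cells that take the type 2 course express GATA3, which opens a cluster on mouse chromosome 11 where Il4, Il13 and Il5 lie around the DNA repair gene Rad50. IL-4 acts back on T cells and on B cell class switching, IL-5 on eosinophils, and IL-13 on epithelium and smooth muscle. Il3 and Csf2 lie side by side elsewhere on the same chromosome and encode growth factors for myeloid cells that activated T cells release. IL-9 and IL-21 signal through the common gamma chain, IL-10 restrains inflammation, and IL-24 belongs to the IL-10 family and acts mainly on epithelial cells.

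Promoter windows from RefSeq (mouse build GRCm38.p6), running from 250 bases before to 50 bases after the annotated start, were held for 8 of the 10 genes, not for Il10 and Il24, and Il4 had 2, of which the one at the outer start is shown. The 5 genes of chromosome 11 are printed because they share a chromosome, lie in neighbouring clusters and changed to unequal degrees. Each is written 5′ to 3′ on the gene's own strand. Capitals mark matches, on either strand, to the 4 motifs searched: TGANTCA (AP-1), GGAAA (the NFAT core), TATAAA (the TATA box), and, for GATA factors, AGATAA or else AGATAG, and also TGATAA or else TGATAG. The windows are chr11:53634653-53634952 on the minus strand for Il13, chr11:53618616-53618915 on the minus strand for Il4, chr11:53720544-53720843 on the plus strand for Il5, chr11:54249850-54250149 on the minus strand for Csf2 and chr11:54267230-54267529 on the minus strand for Il3.
Il13: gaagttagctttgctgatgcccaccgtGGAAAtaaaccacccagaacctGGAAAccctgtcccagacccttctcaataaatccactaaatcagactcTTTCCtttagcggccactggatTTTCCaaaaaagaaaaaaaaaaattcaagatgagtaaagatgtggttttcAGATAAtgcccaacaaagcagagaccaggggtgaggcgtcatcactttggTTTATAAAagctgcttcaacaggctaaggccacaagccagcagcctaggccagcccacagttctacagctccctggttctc
Il4: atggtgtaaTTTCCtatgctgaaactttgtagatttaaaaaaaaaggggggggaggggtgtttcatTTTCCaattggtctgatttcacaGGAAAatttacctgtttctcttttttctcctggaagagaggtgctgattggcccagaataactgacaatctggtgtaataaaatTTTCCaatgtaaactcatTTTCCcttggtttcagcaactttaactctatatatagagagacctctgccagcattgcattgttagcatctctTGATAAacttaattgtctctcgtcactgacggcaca
Il5: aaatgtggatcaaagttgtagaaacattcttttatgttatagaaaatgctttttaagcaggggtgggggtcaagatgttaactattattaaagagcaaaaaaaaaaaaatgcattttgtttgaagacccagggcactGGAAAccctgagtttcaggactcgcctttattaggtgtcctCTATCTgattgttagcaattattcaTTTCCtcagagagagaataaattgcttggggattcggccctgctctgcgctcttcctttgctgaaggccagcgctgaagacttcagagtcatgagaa
Csf2: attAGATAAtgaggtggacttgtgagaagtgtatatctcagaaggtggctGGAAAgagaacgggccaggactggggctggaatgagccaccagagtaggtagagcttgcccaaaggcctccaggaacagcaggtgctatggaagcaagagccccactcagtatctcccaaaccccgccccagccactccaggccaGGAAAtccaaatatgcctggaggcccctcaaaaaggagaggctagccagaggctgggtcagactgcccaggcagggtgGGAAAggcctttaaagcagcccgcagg
Il3: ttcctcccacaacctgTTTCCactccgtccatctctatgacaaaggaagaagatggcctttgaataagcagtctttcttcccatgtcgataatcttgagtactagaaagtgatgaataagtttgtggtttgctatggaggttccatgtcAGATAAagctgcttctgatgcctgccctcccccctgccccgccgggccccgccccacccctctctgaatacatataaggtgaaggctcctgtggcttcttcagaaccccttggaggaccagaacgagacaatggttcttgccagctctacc
The printed Il4 window held 5 matches to the NFAT core, the Il13 window 4, the Csf2 window 3, the Il5 window 2 and the Il3 window 1. The Il4 window that is not printed held 1, so the place of Il4 in this order depends on the start used. Each of the 5 printed windows held 1 GATA match, and only Il13 held a TATA box, read once on each strand at overlapping letters. Il9, on chromosome 13, was the gene with an AP-1 match among the 8. Of all 32851 windows in that table, 61.3% held the NFAT core, 29.8% a GATA match, 13.6% a TATA box and 7.81% an AP-1 match. A match is a description of these letters and not a bound site.

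With shFabp7 partners at 48 h, transcripts of all 10 genes were higher than with control partners at 48 h, by 1.15-fold (Il5) to 2.26-fold (Il3). At 24 h, 6 of the 10 were higher with shFabp7 than with control partners (Il13, Gata3, Il3, Csf2, Il21 and Il10), by 1.14-fold (Gata3) to 1.5-fold (Il3), and Il4, Il5, Il9 and Il24 did not pass. Among all genes tested, 19.9% were called higher at 48 h and 6.22% at 24 h, at a Benjamini-Hochberg adjusted p under 0.05. None of the 10 was called lower at either time, where 11.6% of all genes were at 48 h and 4.65% at 24 h. The median log2 fold change of the 10 genes was 0.62 at 48 h, against 0.01 over all genes, and 0.42 at 24 h, against -0.0041 over all genes. The 10 genes were chosen with earlier results of these data known. Comparison with all genes, here and below, therefore cannot show that the set is unusual.

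The libraries showed the same as the fit. In CPM, the 3 libraries with shFabp7 partners lay above the 3 with control partners for 10 of 10 genes at 48 h, where 25.7% of all genes did so, and for 8 of 10 at 24 h, where 15% did. The 2 genes that overlapped at 24 h were Il5 and Il24. All 10 effects kept their sign at both times under each of the 4 scalings run, although the share of increases among all called genes moved with the scaling: at 48 h it was 63.2% with TMM and 40.5% with library totals alone, and at 24 h 57.2% and 33.2%. With library totals alone 8 genes were called at 48 h and 4 at 24 h.

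**Figure D1:**
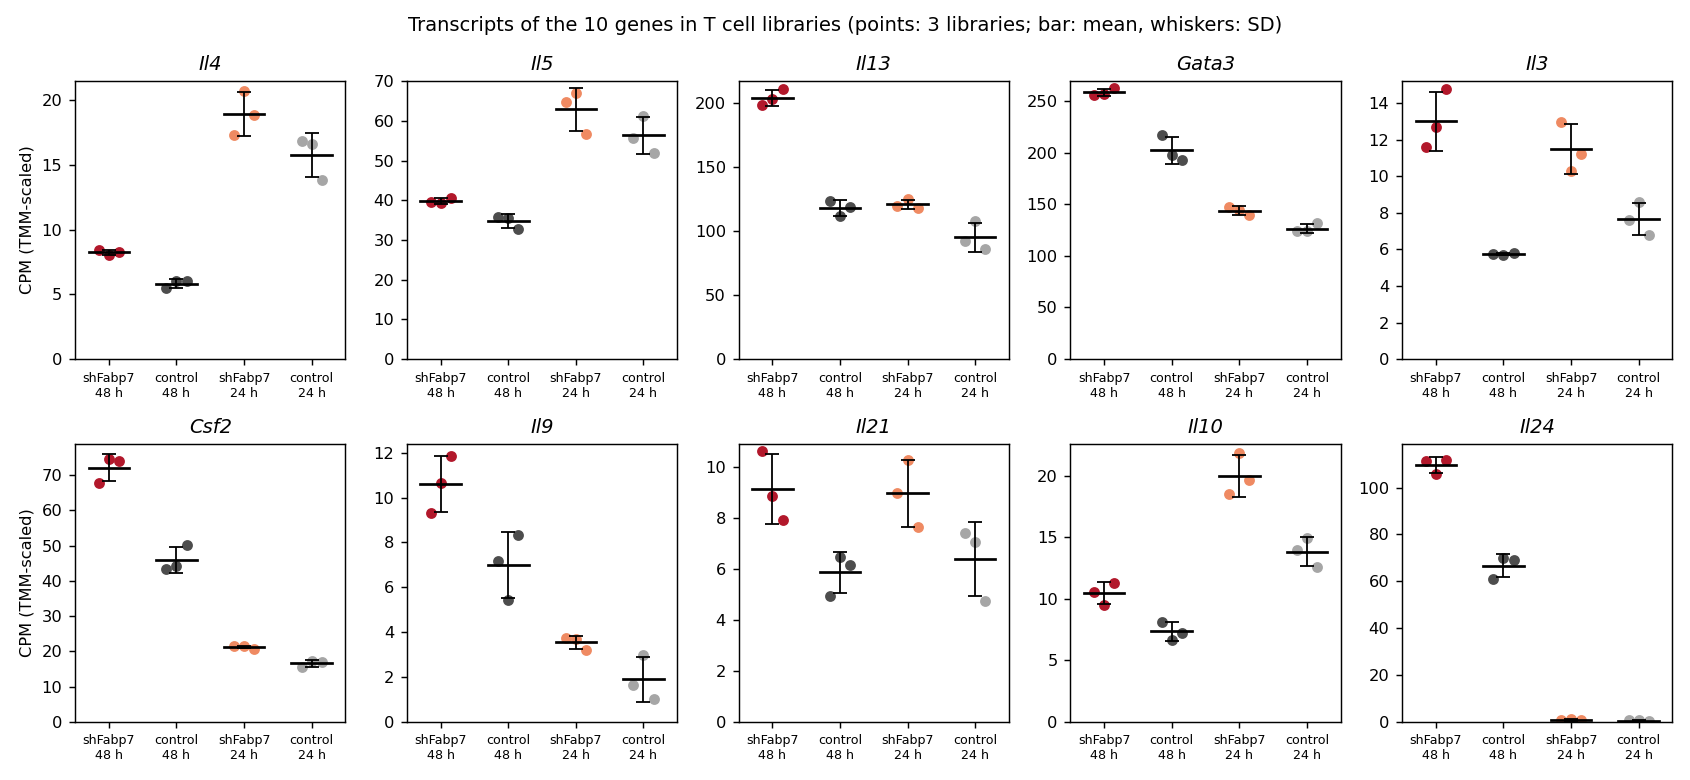
TMM-scaled CPM of the 10 genes in each of the 12 libraries (points, 3 per group) with the group mean and SD. At 48 h the points of the shFabp7 partner lie above those of the control partner in every panel, and Il24 is near 0 at 24 h.

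Il13 was the most strongly expressed of the 9 cytokine genes per length in all 4 groups. Its levels were 198.5, 203.4 and 211.2 CPM with shFabp7 partners at 48 h, against 123.9, 111.8 and 118.8 CPM with control partners at 48 h. At 24 h they were 120.1, 125.1 and 118.1 CPM with shFabp7 partners, against 92.2, 108.1 and 85.9 CPM with control partners. The shFabp7 libraries at 48 h stood alone at the top, and the control libraries at 48 h overlapped with the shFabp7 libraries at 24 h. The log2 fold change between partners was 0.79 ± 0.06 (SE, adjusted p = 4.5e-11) at 48 h and 0.34 ± 0.06 (adjusted p = 0.00066) at 24 h. Of 13643 genes with a group mean of at least 1 CPM, 103 had a larger fold at 48 h.

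Il4, which encodes the cytokine that drives and defines type 2 helper cells, was far less abundant. It was at 8.41, 8.03 and 8.26 CPM with shFabp7 partners at 48 h, against 5.45, 6.02 and 6.02 CPM with control partners at 48 h. At 24 h it was at 17.3, 20.7 and 18.8 CPM with shFabp7 partners, against 16.9, 16.6 and 13.9 CPM with control partners. The groups did not overlap at either time, and every library at 24 h was above every library at 48 h. The partner difference was 0.50 ± 0.11 (adjusted p = 0.00037) at 48 h. The difference at 24 h was 0.27, with a 95% interval of 0.08 to 0.45 and an adjusted p of 0.058, which passed with RLE scaling (adjusted p = 0.030), with DESeq2 (0.029), without the low-count filter (0.032), without control replicate 2 at 24 h (0.031) and without shFabp7 replicate 1 at 24 h (0.038).

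Il5 showed the smallest partner difference. It was at 39.5, 39.4 and 40.6 CPM with shFabp7 partners at 48 h, against 35.8, 35.7 and 32.7 CPM with control partners at 48 h. After 24 h Il5 was at 64.9, 67.1 and 56.9 CPM with shFabp7 partners, against 55.8, 61.3 and 52.0 CPM with control partners, and these groups overlapped. Between partners the log2 fold change was 0.20 ± 0.07 (adjusted p = 0.023) at 48 h and 0.16 ± 0.07 (adjusted p = 0.12) at 24 h. The call at 48 h was lost with upper-quartile scaling (adjusted p = 0.21), with library totals alone (0.20), without control replicate 3 at 48 h (0.12) and without shFabp7 replicate 3 at 48 h (0.073). The difference at 24 h passed without control replicate 2 (0.015) or shFabp7 replicate 3 (0.021) at that time.

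Gata3, the lineage transcription factor of type 2 cells and also a factor of T cell development and maintenance, was at 256.0, 256.8 and 262.2 CPM with shFabp7 partners at 48 h, against 217.0, 197.2 and 192.6 CPM with control partners at 48 h. After 24 h Gata3 was at 147.5, 144.3 and 139.7 CPM with shFabp7 partners, against 124.1, 123.6 and 131.3 CPM with control partners. The groups were apart at both times, and its log2 fold change was 0.35 ± 0.05 (adjusted p = 1.6e-06) at 48 h and 0.19 ± 0.05 (adjusted p = 0.017) at 24 h. The call at 24 h was lost with library totals alone (adjusted p = 0.063) and without replicate 1 of either partner at 24 h (0.055 for control, 0.054 for shFabp7).

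Among the growth factors, Il3 had the largest partner effect of the 10 genes at 48 h. It was at 11.6, 12.7 and 14.8 CPM with shFabp7 partners at 48 h, against 5.75, 5.71 and 5.82 CPM with control partners at 48 h. With 24 h of culture it was at 12.98, 10.3 and 11.2 CPM with shFabp7 partners, against 7.62, 8.58 and 6.80 CPM with control partners. The 3 control libraries at 48 h were the lowest of the 12 and nearly equal, and the 6 libraries with shFabp7 partners were above all 6 with control partners. Il3 differed by a log2 fold change of 1.17 ± 0.11 (adjusted p = 1.3e-09) at 48 h, which 28 of 13643 genes exceeded, and 0.58 ± 0.11 (adjusted p = 0.0011) at 24 h.

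Csf2, its neighbour, behaved likewise between partners but not over time. It was at 67.8, 74.7 and 73.98 CPM with shFabp7 partners at 48 h, against 43.3, 44.2 and 50.3 CPM with control partners at 48 h. In 24 h cultures Csf2 was at 21.4, 21.5 and 20.8 CPM with shFabp7 partners, against 15.4, 17.2 and 17.1 CPM with control partners. No 2 groups overlapped. The log2 fold change between partners was 0.65 ± 0.06 (adjusted p = 1.5e-09) at 48 h and 0.35 ± 0.07 (adjusted p = 0.0022) at 24 h.

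Il9 encodes a growth factor for mast cells and T cells and was one of the scarcer transcripts. It was at 9.33, 10.6 and 11.8 CPM with shFabp7 partners at 48 h, against 7.20, 5.43 and 8.34 CPM with control partners at 48 h. After 24 h Il9 was at 3.72, 3.69 and 3.22 CPM with shFabp7 partners, against 1.66, 3.00 and 1.02 CPM with control partners. The control libraries at 24 h were unequal, at 54, 110 and 36 counts, and the biological coefficient of variation of Il9 was 0.20, against a median of 0.069 over all genes. For Il9 the log2 fold change was 0.60 ± 0.21 (adjusted p = 0.042) at 48 h and 0.89 ± 0.28 (adjusted p = 0.056) at 24 h. Without control replicate 2 at 24 h the log2 fold change at that time was 1.43 (adjusted p = 0.00014). With RLE scaling and all libraries kept it was 0.92 and also passed (adjusted p = 0.049). The call at 48 h was lost with DESeq2 (adjusted p = 0.13), with upper-quartile scaling (0.076), with library totals alone (0.072), and without any 1 of 4 of the 6 libraries at 48 h (0.105 to 0.146).

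Il21, which encodes a cytokine of follicular helper cells that sustains germinal centre B cells and cytotoxic T cells, was at 10.6, 8.85 and 7.93 CPM with shFabp7 partners at 48 h, against 4.93, 6.48 and 6.17 CPM with control partners at 48 h. At 24 h it was at 8.97, 10.3 and 7.63 CPM with shFabp7 partners, against 7.41, 7.05 and 4.72 CPM with control partners. The groups did not overlap, though the gap at 24 h was narrow. The log2 fold change was 0.64 ± 0.15 (adjusted p = 0.0014) at 48 h and 0.49 ± 0.15 (adjusted p = 0.037) at 24 h. The call at 24 h was lost with upper-quartile scaling (adjusted p = 0.051), with library totals alone (0.066), without control replicate 3 (0.16) and without shFabp7 replicate 1 (0.080) or 2 (0.14) at that time.

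Il10 was at 10.6, 9.48 and 11.3 CPM with shFabp7 partners at 48 h, against 8.15, 6.66 and 7.23 CPM with control partners at 48 h. At 24 h it was at 18.5, 21.9 and 19.7 CPM with shFabp7 partners, against 14.0, 14.95 and 12.6 CPM with control partners. The groups were apart at both times, and its log2 fold change was much alike, 0.51 ± 0.10 (adjusted p = 0.00021) at 48 h and 0.53 ± 0.09 (adjusted p = 0.00051) at 24 h.

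Il24 was at 111.3, 105.6 and 111.9 CPM with shFabp7 partners at 48 h, against 61.1, 70.03 and 69.0 CPM with control partners at 48 h. At 24 h it was at 0.673, 1.04 and 0.571 CPM with shFabp7 partners, against 0.768, 0.545 and 0.228 CPM with control partners, which rest on 21, 31 and 19 counts and on 25, 20 and 8 counts. The groups were far apart at 48 h and overlapped at 24 h. The log2 fold change between partners was 0.72 ± 0.07 (adjusted p = 1.5e-08) at 48 h. The 24 h value was 0.57, with a 95% interval of -0.06 to 1.19 (adjusted p = 0.26), so a difference of the size seen at 48 h lies within what these counts allow.

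**Figure D2:**
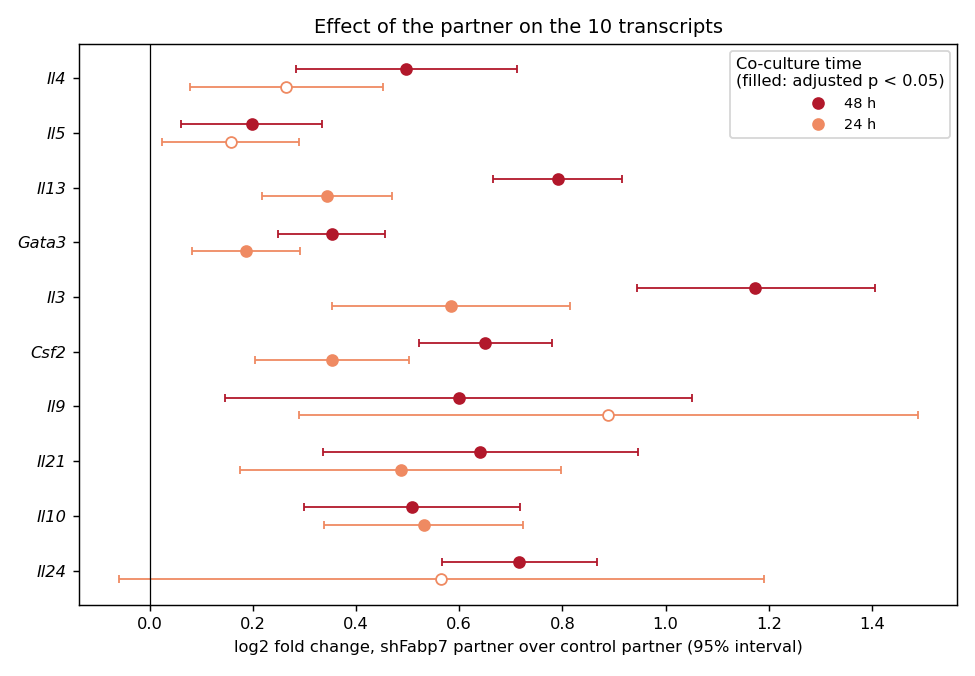
Log2 fold change of the shFabp7 over the control partner for the 10 genes at 48 h and at 24 h, with 95% intervals from edgeR and filled points at an adjusted p under 0.05. All 10 values are above 0 at both times, with Il3 highest at 48 h (1.17) and Il9 at 24 h (0.89), and the interval of Il24 at 24 h includes 0.

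Whether the partner effect itself differed between the times was tested by an interaction contrast, the log2 fold change at 48 h minus that at 24 h. The difference passed for Il13, at 0.45 ± 0.09 (adjusted p = 0.0021), and for Il3, at 0.59 ± 0.16 (adjusted p = 0.024), so 2 of 10 genes were called, both upward, against 4.43% of all genes. Il13 passed in every alternative run. Il3 lost its call with upper-quartile scaling (adjusted p = 0.052) and without any 1 of 7 of the 12 libraries (0.050 to 0.16). Csf2 was at 0.30 ± 0.10 (adjusted p = 0.065) and passed without control replicate 3 at 48 h (0.027), and Gata3 was at 0.17 ± 0.07 (adjusted p = 0.20) and passed without control replicate 1 at 48 h (0.022). For the other 6 genes the difference did not pass. Its 95% interval was -0.05 to 0.52 for Il4 (value 0.23, adjusted p = 0.39), -0.31 to 0.26 for Il10 and -0.15 to 0.23 for Il5. For Il9, Il21 and Il24 the interval was wide, at -1.04 to 0.46, -0.28 to 0.59 and -0.51 to 0.82.

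Over time the 10 genes split. At 48 h, compared with 24 h, Il24, Il9, Csf2, Gata3 and Il13 rose with either partner, and Il4, Il10 and Il5 fell with either partner. With shFabp7 partners 5 of 10 were called higher and 3 lower at 48 h, against 35.9% and 30.2% of all genes. With control partners 5 were called higher and 4 lower, against 35.8% and 32% of all genes, so time moved most genes of the table and the share among these 10 is read only gene by gene. Library totals alone shifted the median log2 change of all genes over time to 0.21 with shFabp7 and 0.23 with control partners, against 0.06 and 0.04 with TMM.

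The rise of Il24 was the largest by far, at a log2 fold change of 7.18 ± 0.13 (144.9-fold, adjusted p = 4.4e-27) with shFabp7 partners and 7.03 ± 0.14 (130.5-fold, adjusted p = 3.5e-26) with control partners. It ranked 6 of 13643 genes in both comparisons. Il20, the gene next to it in the order of protein-coding genes and also of the IL-10 family, had 1 count in the 3 libraries with shFabp7 partners at 48 h and 2 with control partners, and 0 at 24 h. Il19 had 10 counts with shFabp7 and 13 with control partners at 48 h, and 1 and 1 at 24 h. Both genes lie between Il24 and Il10 on chromosome 1, and Il10 itself fell on the log2 scale by 0.94 ± 0.10 (adjusted p = 2.0e-10) with shFabp7 partners and by 0.92 ± 0.10 (adjusted p = 9.6e-10) with control partners.

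The type 2 genes moved in different directions over time. Il4 fell by 1.20 ± 0.10 (adjusted p = 6.0e-13) with shFabp7 partners and by 1.43 ± 0.10 (adjusted p = 1.7e-14) with control partners. Il5 fell by 0.66 ± 0.07 and 0.70 ± 0.07 (adjusted p = 1.1e-10 and 3.1e-11). Il13, next to Il4 on the chromosome, rose by 0.76 ± 0.06 (adjusted p = 1.6e-12) with shFabp7 and by 0.31 ± 0.06 (adjusted p = 5.3e-05) with control partners, and Gata3 rose by 0.84 ± 0.05 and 0.68 ± 0.05 (adjusted p = 4.3e-16 and 1.2e-13). Within the type 2 set, therefore, the cytokine genes Il4 and Il5 were lower at 48 h in libraries whose Gata3 was higher.

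Csf2 rose by 1.77 ± 0.07 (adjusted p = 1.7e-21) with shFabp7 partners and by 1.47 ± 0.07 (adjusted p = 4.8e-19) with control partners. Il9 rose by 1.58 ± 0.23 and 1.87 ± 0.26 (adjusted p = 1.8e-05 and 7.9e-06). Il3, beside Csf2, did not pass with shFabp7 partners (0.18 ± 0.11, adjusted p = 0.15) and fell by 0.41 ± 0.12 (adjusted p = 0.0027) with control partners. With library totals alone these were 0.32 (adjusted p = 0.0087) and -0.22 (adjusted p = 0.094), and relative to the median of all genes Il3 was at -0.46 with control partners under TMM. Il21 did not pass with either partner, at 0.03 ± 0.15 (adjusted p = 0.86) with shFabp7 and -0.12 ± 0.15 (adjusted p = 0.50) with control partners, and its sign changed with the scaling.

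**Figure D3:**
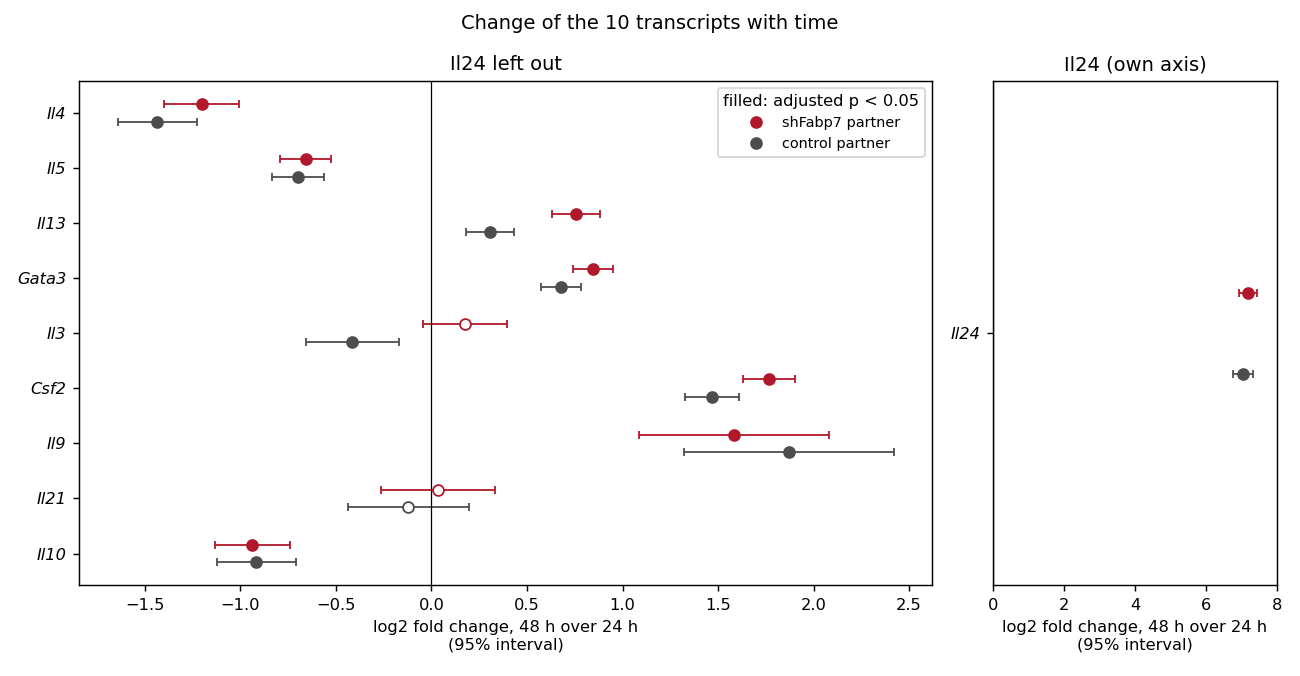
Log2 fold change of 48 h over 24 h for the 10 genes, with shFabp7 and with control partners, with 95% intervals from edgeR, filled points at an adjusted p under 0.05 and an axis of its own for Il24. Il24 stands at 7.18 with shFabp7 and 7.03 with control partners, Il9, Csf2, Gata3 and Il13 lie above 0, and Il4, Il10 and Il5 lie below 0.

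Levels of different genes were compared after dividing CPM by the length of the longest protein-coding transcript in kilobases (CPM per kb). With shFabp7 partners at 48 h the order was Il13 (170 CPM per kb), Il24 (92.7), Csf2 (90.2), Gata3 (80.3), Il5 (25.9), Il3 (20.7), Il9 (19.8), Il4 (13.6), Il10 (7.97) and Il21 (2.97), and the libraries of neighbours overlapped for Il24 with Csf2 and for Il3 with Il9. With control partners at 48 h it was Il13 (98.0), Gata3 (62.9), Csf2 (57.4), Il24 (56.4), Il5 (22.6), Il9 (13.03), Il4 (9.64), Il3 (9.16), Il10 (5.61) and Il21 (1.91), and Il4 overlapped with Il3, Gata3 with Csf2, and Csf2 with Il24. Il3 stood above Il4 with shFabp7 partners and level with it with control partners.

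At 24 h the order with shFabp7 partners was Il13 (100.5 CPM per kb), Gata3 (44.7), Il5 (40.9), Il4 (31.4), Csf2 (26.5), Il3 (18.3), Il10 (15.3), Il9 (6.60), Il21 (2.92) and Il24 (0.644). With control partners at 24 h the order was the same, from Il13 at 79.2 through Gata3 (39.3), Il5 (36.7), Il4 (26.1), Csf2 (20.7), Il3 (12.2), Il10 (10.6), Il9 (3.53) and Il21 (2.08) to Il24 at 0.434 CPM per kb. The libraries of Gata3 and Il5 and of Il3 and Il10 overlapped with both partners, and those of Il9 and Il21 with control partners. Il13 was first and apart from the next gene in all 4 groups, and Il24 was last at 24 h and among the 4 highest at 48 h.

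**Figure D4:**
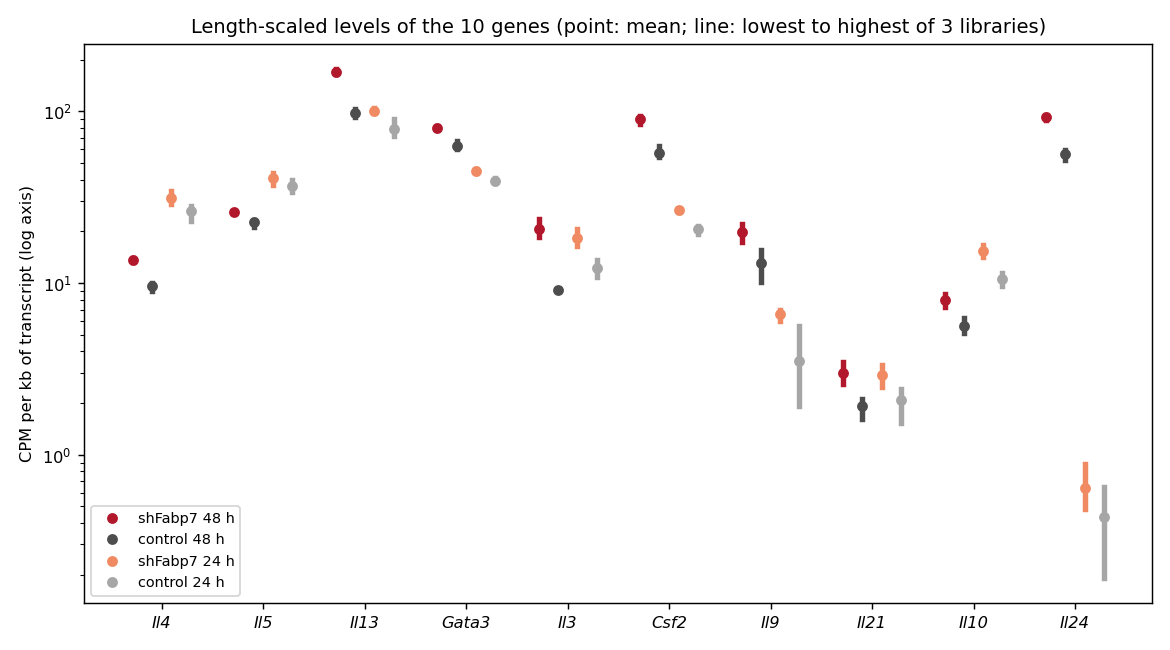
CPM per kb of the 10 genes in the 4 groups, on a log axis, as means (points) with lines over the range of the 3 libraries. Il13 is highest in all groups (170 with shFabp7 partners at 48 h), and Il24 moves from last at 24 h to the upper 4 at 48 h.

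The 9 cytokine genes summed to 477.4 ± 12.7 CPM with shFabp7 partners at 48 h, against 297.3 ± 6.40 CPM with control partners at 48 h (SD, n = 3 each). At 24 h they summed to 269 ± 12.3 CPM with shFabp7 and 214.4 ± 21.6 CPM with control partners. As shares of the length-scaled sum, Il13 held 38.3% with shFabp7 and 35.8% with control partners at 48 h, and 41.4% and 41.3% at 24 h. Il24 held 20.9% and 20.6% at 48 h, and 0.263% and 0.224% at 24 h. Csf2 held 20.3% and 20.9% at 48 h, and 10.9% with each partner at 24 h. Il5 held 5.85% with shFabp7 and 8.27% with control partners at 48 h, and 16.8% and 19.2% at 24 h, and Il4 held 3.07% and 3.52% at 48 h, and 12.9% and 13.6% at 24 h.

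**Figure D5:**
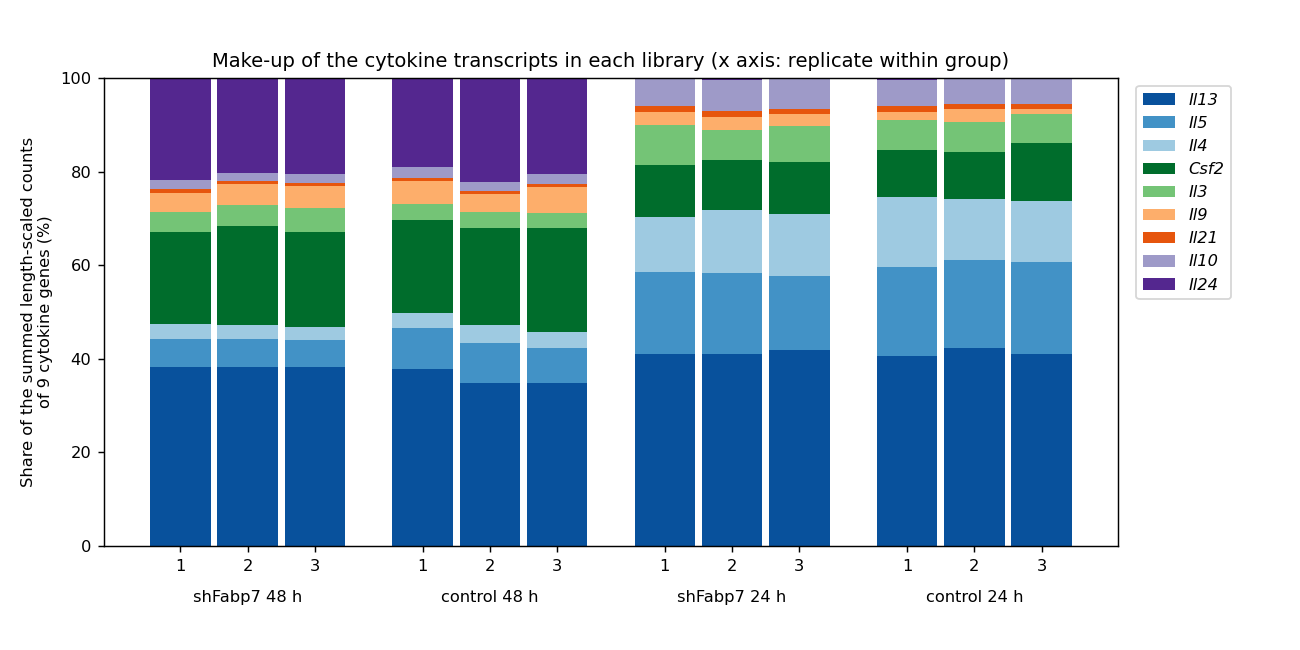
Share (percent) of each of the 9 cytokine genes in their summed length-scaled counts, as 1 stacked bar per library that starts at 0. Il13 takes 35.8 to 41.4% as a group mean, Il24 takes 20.6 or 20.9% at 48 h and 0.224 or 0.263% at 24 h, and the shares of Il4 and Il5 are larger at 24 h.

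Ratios of counts within a library do not depend on how libraries are scaled. Since they do depend on gene length, only their difference between groups is read. With 3 libraries against 3, the exact permutation test (two-sided) cannot go below 0.1, so no ratio can pass at 0.05. The ratio of Il13 to Il5 was 5.13 ± 0.0939 with shFabp7 and 3.41 ± 0.252 with control partners at 48 h, and at 24 h 1.93 ± 0.127 with shFabp7 and 1.69 ± 0.0635 with control partners (SD, n = 3 each). The groups were apart at both times (exact p = 0.1 in each), by 0.59 and 0.19 on the log2 scale. The ratio of Csf2 to Il3 was 5.58 ± 0.494 with shFabp7 and 7.97 ± 0.594 with control partners at 48 h, again without overlap (exact p = 0.1), and 1.86 ± 0.219 and 2.18 ± 0.289 at 24 h (exact p = 0.3). The ratio of Il13 to Gata3 was 0.791 ± 0.0152 with shFabp7 and 0.585 ± 0.0278 with control partners at 48 h (exact p = 0.1), and 0.842 ± 0.0267 and 0.757 ± 0.111 at 24 h (exact p = 0.4). At 48 h the partner difference of Il13 was thus larger than that of Il5 and of Gata3, and that of Il3 larger than that of Csf2, in every pairing of these libraries.

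No receptor chain of these cytokines was called higher with shFabp7 partners. Of 16 receptor genes listed, 13 were tested. With shFabp7 partners 0 were higher and 3 lower at 48 h, and 0 higher and 2 lower at 24 h. Among all genes 19.9% were called higher and 11.6% lower at 48 h, and 6.22% and 4.65% at 24 h. The same shares apply to the partner counts of the lists that follow. Il10ra, the ligand-binding chain of the IL-10 receptor, averaged 205.8 ± 2.06 CPM with shFabp7 and 236.1 ± 15.03 CPM with control partners at 48 h, and 90.6 ± 1.9 and 109.5 ± 3.69 CPM at 24 h (log2 fold changes -0.20 ± 0.05, adjusted p = 0.0025, and -0.27 ± 0.05, adjusted p = 0.0010). At 48 h Il3ra, the IL-3 binding chain, was lower by 0.19 on the log2 scale (-0.19 ± 0.07, adjusted p = 0.035), and Csf2ra, the GM-CSF binding chain, was also called lower. Il9r was lower at 24 h (-0.77 ± 0.23, adjusted p = 0.029), at 1.29 ± 0.262 CPM with shFabp7 and 2.22 ± 0.731 CPM with control partners. Over time 7 of 13 receptor genes rose and 4 fell with shFabp7 partners, and 6 rose and 3 fell with control partners, beside 35.9% and 30.2% of all genes with shFabp7 and 35.8% and 32% with control partners. Il10ra (1.18 ± 0.05 with shFabp7, 1.11 ± 0.05 with control partners) and Il3ra (0.64 ± 0.07 and 0.68 ± 0.07) rose, while Il2rg, the common gamma chain (-0.60 ± 0.05 and -0.70 ± 0.05), and Il4ra (-0.36 ± 0.06 and -0.34 ± 0.06) fell.

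Other genes of type 2 cells were split between partners. Of 24 listed, 19 were tested, and with shFabp7 partners 5 were higher and 5 lower at 48 h, and 3 higher and 3 lower at 24 h. Their median log2 fold change was -0.08 at 48 h and 0.01 at 24 h. Nfil3, a transcription factor that takes part in type 2 cytokine control, averaged 109.8 ± 5.63 CPM with shFabp7 and 78.4 ± 5.99 CPM with control partners at 48 h (0.49 ± 0.06, adjusted p = 1.6e-07). Ccr4, a chemokine receptor of type 2 and regulatory T cells, averaged 87.0 ± 1.75 and 64.8 ± 0.877 CPM (0.42 ± 0.06, adjusted p = 2.9e-07). Il1rl1, the receptor for IL-33, went the other way, with 28.7 ± 1.29 CPM with shFabp7 and 40.8 ± 0.903 CPM with control partners at 48 h (-0.51 ± 0.06, adjusted p = 2.2e-07) and 39.3 ± 0.654 and 49.5 ± 4.30 CPM at 24 h (-0.33 ± 0.06, adjusted p = 0.0010). Rora, a nuclear receptor gene, was also lower at both times (-0.37 ± 0.06, adjusted p = 1.5e-05, and -0.28 ± 0.06, adjusted p = 0.0035). At 24 h Areg, a ligand of the epidermal growth factor receptor, was higher (0.57 ± 0.17, adjusted p = 0.022), as was Gfi1, a repressor that supports type 2 cell growth (0.17 ± 0.05, adjusted p = 0.024). Areg was also called higher at 48 h (0.49 ± 0.18, adjusted p = 0.037), and Gfi1 was not (0.12 ± 0.05, adjusted p = 0.062). The partner effect grew between the times for Ccr4 (interaction 0.37 ± 0.08, adjusted p = 0.0050) and Nfil3 (0.31 ± 0.09, adjusted p = 0.036).

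Among 22 transcription factors known to control Il10, Il21 or Il9, all tested, 10 were higher and 1 lower with shFabp7 partners at 48 h, and 6 higher and 0 lower at 24 h. Batf, an AP-1 family factor, averaged 90.9 ± 0.864 CPM with shFabp7 and 67.5 ± 1.95 CPM with control partners at 48 h (0.43 ± 0.06, adjusted p = 2.7e-07), and 76.0 ± 3.18 and 61.6 ± 4.56 CPM at 24 h (0.30 ± 0.06, adjusted p = 0.00079). Irf4, which pairs with BATF on DNA, averaged 725.8 ± 17 and 541.8 ± 47.2 CPM at 48 h (0.42 ± 0.06, adjusted p = 8.0e-07), against 1132 ± 45.7 and 1124 ± 70.4 CPM at 24 h, and its interaction passed (0.41 ± 0.08, adjusted p = 0.0025). Bcl6, the repressor that marks follicular helper cells, was the 1 lower at 48 h (-0.38 ± 0.08, adjusted p = 0.00018), with an interaction of -0.41 ± 0.11 (adjusted p = 0.022). Egr2 was higher at 24 h (0.37 ± 0.06, adjusted p = 0.00040) and at 48 h (0.395 ± 0.06, adjusted p = 1.8e-05). Over time 7 rose and 11 fell with shFabp7 partners, and 8 rose and 13 fell with control partners. Among all genes 35.9% rose and 30.2% fell with shFabp7 partners, and 35.8% rose and 32% fell with control partners. Bhlhe40 rose (1.44 ± 0.06 with shFabp7, 1.23 ± 0.06 with control partners) and Jund fell (-0.75 ± 0.06 and -0.93 ± 0.06).

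Of 28 other T cell cytokine and chemokine genes, all tested, 13 were higher and 3 lower with shFabp7 partners at 48 h, and 8 higher and 1 lower at 24 h. Ifng, the main type 1 cytokine gene, was higher at 48 h (0.78 ± 0.07, adjusted p = 1.5e-08) and at 24 h (0.55 ± 0.07, adjusted p = 7.1e-05), and the count ratio of Il13 to Ifng at 48 h was 0.433 ± 0.0209 with shFabp7 and 0.429 ± 0.0293 with control partners. At 24 h that ratio was 0.671 ± 0.0575 and 0.768 ± 0.00638 (exact p = 0.1). Ccl3, a chemokine gene, was higher at 48 h (0.91 ± 0.06, adjusted p = 1.7e-11) and at 24 h (0.41 ± 0.06, adjusted p = 0.00014). Il2, the T cell growth factor gene beside Il21, was higher at 24 h (0.56 ± 0.08, adjusted p = 3.9e-05) and at 48 h (0.80 ± 0.09, adjusted p = 8.2e-08). Il16 was lower at 48 h (-0.35 ± 0.05, adjusted p = 3.9e-06), and Il1b was lower at both times (-0.38 ± 0.12, adjusted p = 0.018, and -0.40 ± 0.12, adjusted p = 0.028). The interaction passed upward for 5 of the 28, Ccl3 (0.50 ± 0.09) and Osm (0.33 ± 0.08) among them, beside 4.43% of all genes. The 1 that passed downward was Xcl1 (-0.34 ± 0.09).

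A list of genes that lie near the 10 in the genome was examined as well. It was not confined to direct neighbours, and it left out Celf2, which lies beside Gata3. Of 20 listed, 16 were tested. With shFabp7 partners 6 were higher and 2 lower at 48 h, and 1 higher and 1 lower at 24 h. The shares of all genes were 19.9% and 11.6% at 48 h, and 6.22% and 4.65% at 24 h. The 1 gene higher at 24 h was Il2, which is also among the 28 other cytokine and chemokine genes. Acsl6, a fatty acid activating enzyme gene next to Il3, was higher at 48 h (0.70 ± 0.15, adjusted p = 0.00028), at 9.61 ± 0.620 CPM with shFabp7 and 5.91 ± 0.856 CPM with control partners. Irf1, the interferon regulatory factor gene beside Il5, was lower at 48 h (-0.31 ± 0.06, adjusted p = 5.0e-05) and at 24 h (-0.20 ± 0.06, adjusted p = 0.017), and Slc22a5, a carnitine transporter gene, was lower at 48 h (-0.26 ± 0.08, adjusted p = 0.019). Il2, beside Il21 on chromosome 3, was higher at 48 h (0.80 ± 0.09, adjusted p = 8.2e-08), and the ratio of Il21 to Il2 counts was 0.574 ± 0.0972 with shFabp7 and 0.636 ± 0.0448 with control partners at 48 h, and 0.164 ± 0.0053 and 0.173 ± 0.0334 at 24 h. Over time Il2 fell (-1.77 ± 0.08 with shFabp7, -2.00 ± 0.09 with control partners) where Il21 was not called, while P4ha2, a collagen hydroxylase gene next to Csf2, rose (3.93 ± 0.17 and 3.16 ± 0.16).

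Likeness of pattern was measured as the root mean square difference of log2 CPM, each gene centred on its own mean, over the 12 libraries and against 11680 genes. Much of it is the change over time, by which many genes of the table moved, some up and some down. The nearest genes were Nop58 (0.0457) and Timm8a1 (0.0561) for Il4, Toe1 (0.0487) and Ddx49 (0.0566) for Il5, Crybg3 (0.112) and Kpna2 (0.122) for Il13, and Phlda1 (0.0457) and Adap1 (0.0517) for Gata3. For Il3 they were Ccl3 (0.169) and B4galt5 (0.234), and for Csf2 Ckap4 (0.101) and Gtse1 (0.138). Il9 was nearest to H4c9 (0.233) and Lipg (0.327), Il21 to Fabp5 (0.174) and Tfrc (0.176), and Il10 to Mrpl20 (0.114) and Nme1 (0.116). Il24 had no close match, with Dthd1 at 0.657 and Fbxo2 at 0.838. Among the 10 genes themselves the closest pairs were Il13 with Gata3 (0.22), Il5 with Il10 (0.23) and Il4 with Il10 (0.24).

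Cell types other than helper T cells can make several of these cytokines, so their markers were summed. Mast cell and basophil markers (12 genes, Mcpt4 at 0) ranged over 15.6 to 17.3 CPM with shFabp7 and 17.4 to 23.1 CPM with control partners at 48 h, and 10.7 to 12.5 and 12.3 to 15.99 CPM at 24 h. Eosinophil markers (8 genes) summed to 1.802 to 2.304 CPM with shFabp7 and 2.16 to 3.27 CPM with control partners at 48 h, and 3.301 to 4.177 and 3.504 to 4.902 CPM at 24 h. Of the 9 mast cell and basophil markers tested, 0 were called higher and 1 lower with shFabp7 partners at 48 h, and none was called at 24 h. Over time 4 of these 9 rose and 2 fell with shFabp7 partners, beside 35.9% and 30.2% of all genes. With control partners 5 rose and 0 fell, beside 35.8% and 32% of all genes. The part of these cells in the values of the 10 genes was not tested. Dendritic cell markers (9 genes, Cd209a at 0 in all groups) averaged 202.4 CPM with shFabp7 and 204.4 CPM with control partners at 48 h, and 170.8 and 248.8 CPM at 24 h, most of it Ccl22, and macrophage and monocyte markers (14 genes) averaged 26.2 and 28.1 CPM at 48 h, and 23.7 and 26.4 CPM at 24 h.

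B cell markers (11 genes) summed to 323.7 CPM with shFabp7 and 326.1 CPM with control partners at 48 h, and to 822.7 and 829.7 CPM at 24 h, most of it Ighm, and their part in the changes over time was not tested. Regulatory T cell markers (8 genes), whose cells are a source of IL-10, summed to 1660 CPM with shFabp7 and 1411 CPM with control partners at 48 h, and to 1588 and 1535 CPM at 24 h. At 48 h most of that sum was Il2ra, the alpha chain of the IL-2 receptor, which activated T cells also express. Il2ra was at 994.7 ± 27.1 CPM with shFabp7 and 725.5 ± 18.96 CPM with control partners at 48 h, and at 738.7 ± 43.4 and 682.1 ± 48.1 CPM at 24 h. It was the 1 of the 8 called higher at 48 h, and 2 were called lower, Ikzf2 and Lrrc32. Foxp3, their defining gene, was at 28.2 ± 2.31 CPM with shFabp7 and 27.6 ± 5.76 CPM with control partners at 48 h, and at 140.3 ± 3.76 and 141.4 ± 6.90 CPM at 24 h. It was lower at 48 h and was not called between partners at either time. Over time 2 of the 8 markers rose and 3 fell with shFabp7 partners, beside 35.9% and 30.2% of all genes. With control partners 1 rose and 4 fell, beside 35.8% and 32% of all genes. The part of regulatory T cells in the values of Il10 was not tested. Follicular helper markers (9 genes) summed to 445.5 CPM with shFabp7 and 462.8 CPM with control partners at 48 h, and to 501.4 and 521.3 CPM at 24 h. Of the 16 T cell markers, 12 fell over time with each partner, beside 30.2% of all genes with shFabp7 and 32% with control partners. Cd8a, a marker of cytotoxic T cells, averaged 137.6 CPM with shFabp7 and 160.9 CPM with control partners at 48 h. At 24 h Cd8a was higher, at 336.4 and 352.8 CPM. Cd4, a marker of helper T cells, went the other way, with 561.4 and 562 CPM at 48 h, and 427.9 and 459 CPM at 24 h. The part of this shift in the changes of the 10 genes over time was not tested. With shFabp7 partners 3 of the 16 were higher and 5 lower at 48 h, and 1 higher and 0 lower at 24 h.

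Neutrophil markers (8 genes) averaged 3.38 CPM with shFabp7 and 6.34 CPM with control partners at 48 h, and 3.33 and 4.87 CPM at 24 h. NK cell markers (8 genes) averaged 9.50 and 11.4 CPM at 48 h, and 6.21 and 6.30 CPM at 24 h. Epithelial markers (9 genes, Krt14 at 0) averaged 5.32 CPM with shFabp7 and 7.20 CPM with control partners at 48 h, and 10.4 and 11.7 CPM at 24 h, and fibroblast and endothelial markers (8 genes) 72.0 and 84.0 CPM at 48 h, and 89.1 and 110.8 CPM at 24 h. Nearly all of the fibroblast and endothelial sum was Pecam1, an adhesion molecule gene, at 67.8 CPM with shFabp7 and 79.6 CPM with control partners at 48 h, and at 82.9 and 103.8 CPM at 24 h. How T cells were parted from the partner cells is not stated, and the part of carried-over RNA in these values was not tested.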

How the data were processed

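RNA was sequenced from spleen T cells in 12 libraries, and the values are the deposited counts of reads for each symbol, which the authors left unnormalized. The submitters' processing notes name HTSeq 0.6.1p1, TopHat2 2.0.13, CASAVA 1.8.2 and the build GRCm39. The sources used here do not give the strand mode or the annotation, so reads of overlapping or antisense genes and of near-identical copies were not separated.

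Libraries (31.95 to 40.64 M counts) were grouped by the sample titles. Genes were kept with filterByExpr (minimum count 10, minimum total 15), libraries scaled by TMM, and 5 comparisons tested with edgeR 4.0.16 quasi-likelihood in R 4.3.3 (1 coefficient per group, all 12 libraries in 1 fit). Adjusted p-values are Benjamini-Hochberg over the 16945 genes, with a threshold of 0.05. CPM are TMM-scaled, folds are given ± SE and levels ± SD (n = 3). The floor of 3 counts lay between 0.0713 and 0.101 CPM and covers counting error only. The intervals on folds come from the edgeR fit and include the spread among libraries. Ratios were compared by an exact permutation test. The fit was tested on simulated data.

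The reference was of build GRCm38 and served only for transcript length, gene order and RefSeq promoter windows (GRCm38.p6). There were 17 gene lists, 12 of them of cell markers. Of each of the other 5, up to 2 genes per direction and comparison with the smallest adjusted p are eligible to be named, plus the 2 genes nearest in pattern to each of the 10 (prior count 2). Csf2ra, Il19, Il20, Rad50, Foxp3, Il2ra, Ikzf2, Lrrc32, Pecam1, Cd4 and Cd8a were chosen after their values were seen. So were the genes named for their place or as the bulk of a marker sum. The 10 genes and the lists were chosen with earlier results of these data known. Alternatives were upper-quartile or RLE scaling, library totals alone, DESeq2 1.42.0, no filter, a stricter filter (1 CPM in 3 libraries and 100 counts), a replicate block, a fit on the compared groups and leaving out each library.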

Additional observations from a re-analysis of the deposited data

Results flagged for a closer look

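The partner effect on Il13 differed between the times: the log2 fold change of shFabp7 over control partners at 48 h minus that at 24 h was 0.45 ± 0.09 (SE, adjusted p = 0.0021). The same interaction contrast was 0.59 ± 0.16 (adjusted p = 0.024) for Il3. In each gene the 3 libraries with shFabp7 partners were above the 3 with control partners at both times. Groups of 3 libraries are too small for a test of single outlying libraries.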

How the results depend on the processing

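Of the log2 fold changes of the 10 genes, without the counts of calls, 365 kept their direction and side of the threshold under the single settings. Of the rest, 11 lost and 8 gained a call, and 6 changed sign. With 1 library left out these were 324, 18, 7 and 11, and the cause of the changes was not tested. The values that changed sign were small: Il21 over time with control partners was 0.0691 with library totals alone, Il21 over time with shFabp7 partners was -0.0042 with RLE scaling and -0.0070 with DESeq2, and the interaction of Il5 was -0.021 with upper-quartile scaling, -0.0014 with library totals alone and -0.00015 without a filter. With 1 library left out, the interaction spanned -0.134 to 0.0563 for Il10, -0.00204 to 0.283 for Il21, -0.272 to 0.455 for Il24 and -0.0767 to 0.0618 for Il5, and Il21 over time spanned -0.101 to 0.125 with shFabp7 and -0.281 to 0.00501 with control partners. Also with 1 library left out, the count of the 10 genes called between partners was 8 to 10 at 48 h and 5 to 9 at 24 h. The 9 came without control replicate 2 at 24 h. In the same runs it was 1 to 3 for the interaction, 8 over time with shFabp7 and 9 over time with control partners. Upper-quartile scaling also gave 1 for the interaction. With library totals alone the count at 24 h was below this range, as given above. There Il3 over time gained its call with shFabp7 partners (adjusted p = 0.0087) and lost it with control partners (0.0945). Over all genes, with 1 library left out, calls between partners numbered 4300 to 5454 at 48 h (5352 with all libraries). At 24 h they numbered 949 to 2525 (1842 with all libraries, 949 without control replicate 1 and 1045 without shFabp7 replicate 1). For the interaction they numbered 319 (without shFabp7 replicate 2 at 24 h) to 1680 (without control replicate 1 at 48 h), against 949 with all libraries. Libraries with the same replicate number did not deviate together (r from -0.067 to 0.0363 over 18 pairs, 0 above 0.1), so the numbers were not taken as pairs. With the replicate number as a block, 9 of the 10 genes passed between partners at 48 h, where Il9 was at an adjusted p of 0.090, and 6 at 24 h, and no other call among the 10 changed. Il24 had 8 to 31 counts in a library at 24 h, which limits its precision there.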
